A study of Homo sapiens with 6 samples.

Results

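The zinc finger genes at 19q13.11 to 19q13.12 are 36 genes that lie in one interval on the long arm of human chromosome 19. They were chosen by symbol, as the zinc finger genes of this interval, and are 36 of the 60666 genes listed for each library. Of these symbols, 35 were found as written and HKR1 was found as ZNF875, its newer name in RefSeq. RNA was sequenced from DNMT3B KO cells, a line derived from HCT116 in which the DNMT3B gene is knocked out, and from HCT116 cells, a colorectal carcinoma line labelled WT, with 3 libraries per line. Both lines came from the same laboratory, were grown in the same medium and received no treatment. The knockout is represented by 1 derived line, so effects of the missing gene cannot be told apart from other differences between this line and HCT116. No source used here states that the 3 libraries of each line were separate cultures, and their spread, on which every p-value below rests, may be technical.

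Most of these genes encode C2H2 zinc finger proteins with a KRAB domain. Such proteins bind DNA through their fingers, and the KRAB domain recruits TRIM28 (KAP1), which brings in the histone methyltransferase SETDB1 and heterochromatin protein 1 and leads to H3K9me3, a mark of silent chromatin. Genes of this family arose by repeated tandem duplication and stand in clusters on chromosome 19, where the finger-coding ends of many of them carry H3K9me3 themselves. DNMT3B is a DNA methyltransferase that adds methyl groups to cytosines in CpG dinucleotides, and DNA methylation of CpG-rich promoters is known to accompany silencing of KRAB zinc finger genes in carcinomas. DNA methylation and histone marks were not measured in the libraries described here.

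The estimated counts summed to between 56277217 and 67624429 per DNMT3B KO library and between 55436267 and 68274783 per HCT116 library. Levels are given as CPM, counts scaled to the depth of the library after TMM normalisation, and a level of 3 counts corresponded to 0.0416 to 0.0595 CPM in a library. DNMT3B had 2.54, 2.87 and 2.83 CPM in the DNMT3B KO libraries, against 38.5, 30.1 and 39.5 CPM in the HCT116 libraries, which follows the labels (log2 fold change -3.71 ± 0.15 (SE), adjusted p = 2.5e-06 by edgeR's quasi-likelihood test). Of the 10 epithelial markers examined, EPCAM, CDH1, KRT8, KRT18 and CDX2 were at 20.3 CPM or more on average in both lines, while CDX1, CEACAM5 and LGR5 were at or near 0. The summed level of these markers was 1777 to 1974 CPM in DNMT3B KO and 3322 to 4505 CPM in HCT116, with 4 of 7 tested markers lower and VIL1 higher in DNMT3B KO. Of the 5 immune markers 2 were tested, and both rose. PTPRC rose to a mean of 0.274 CPM in DNMT3B KO, against 0.00523 CPM in HCT116, and CD3E was at or near 0 in both lines. Markers of other cells summed to 15.3 to 17.9 CPM in DNMT3B KO and 9.98 to 19.9 CPM in HCT116 for 6 fibroblast markers (PDGFRB rose, mostly COL1A1, with LUM at 0 and DCN near 0), 1.48 to 1.94 CPM and 0.615 to 1.52 CPM for 4 endothelial markers and 1.17 to 1.90 CPM and 0.377 to 1.54 CPM for 2 erythroid markers. The part of these marker levels in the results for the zinc finger genes was not tested. On the second principal component of log CPM, which held 13.2% of the variance, HCT116 replicates 2 and 3 stood at opposite ends, at 50.4 and -54.4, with the other 4 libraries between -5.79 and 5.80.

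In the DNMT3B KO line, 5 of the 36 genes were lost almost entirely, 1 fell slightly, 6 rose by less than 2-fold and the remaining tested genes did not pass. The fit by edgeR's quasi-likelihood test ran over all 16959 genes that passed the filter on low counts, and 20 of the 36 zinc finger genes were among them. A gene was called at a Benjamini-Hochberg adjusted p under 0.05. Of the 20 tested zinc finger genes, 6 rose, 6 fell and 8 did not pass, so 60.0% were called. Over all tested genes 28.1% were called, with 12.9% rising and 15.1% falling. The other 16 zinc finger genes were below the filter and had no test. Among the genes that fell, 5 were also lower by at least 4-fold, a class that held 3.29% of all tested genes. The same 5 met a stricter description, in which a called gene had a mean under 0.1 CPM in DNMT3B KO and at least 1 CPM in HCT116 and is named switched off below, as 0.761% of all tested genes did. No zinc finger gene of the interval was switched on. These 5 genes passed the filter only through their HCT116 libraries and had to differ. The shares of tested members that were called, lower by at least 4-fold or switched off are therefore descriptions and carry no weight as tests. The 3 libraries of one line lay entirely above or below those of the other for 14 of the 20 tested members, including all 12 that were called, against 45.9% of all tested genes. The 5 switched-off genes had to be among these 14, so this share is likewise only a description. The median log2 fold change was -0.07 over the tested members and -0.00 over all tested genes.

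**Figure D1:**
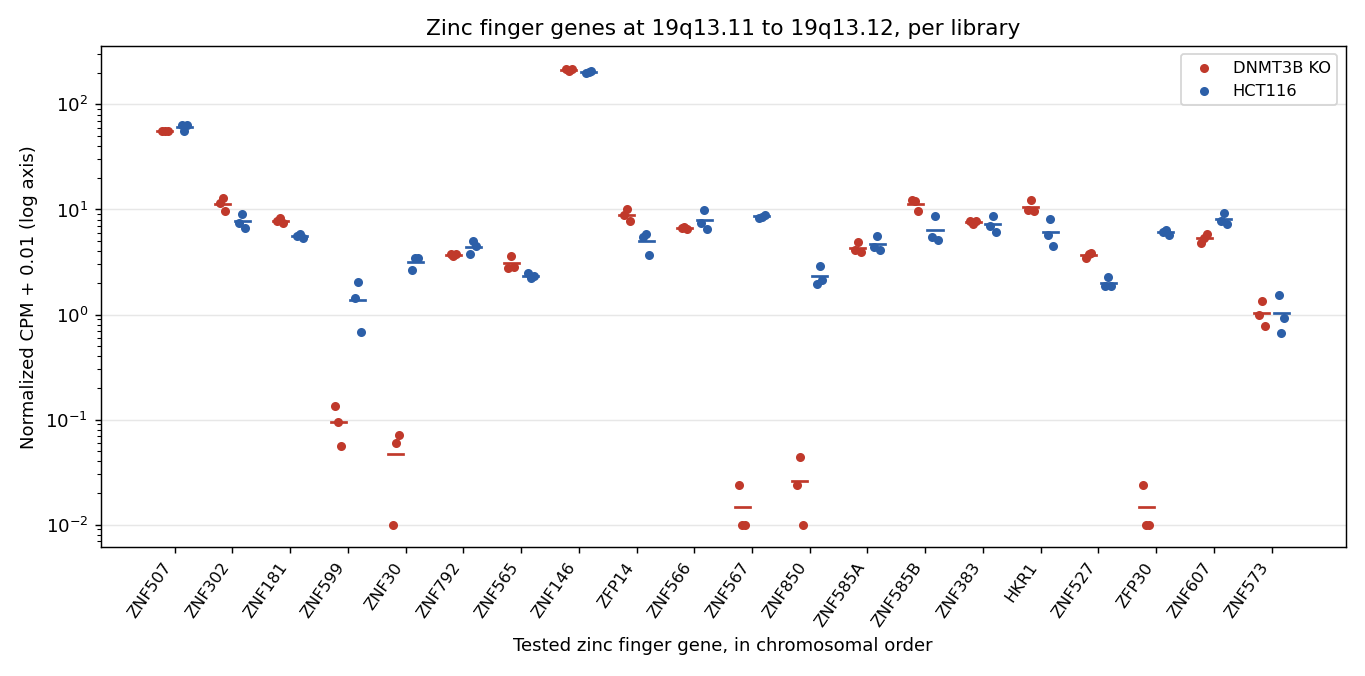
Normalised CPM (with a small constant added, log axis) of the 20 tested zinc finger genes in chromosomal order, with 1 point per library and a bar for the mean, DNMT3B KO in red left of HCT116 in blue. ZNF599, ZNF30, ZNF567, ZNF850 and ZFP30 lie at 0.125 CPM or less in every DNMT3B KO library and at 0.674 CPM or more in every HCT116 library, while the groups of the other genes lie close together.

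ZNF567 and ZNF850 are neighbours on opposite strands whose annotated bodies overlap, and both were switched off. ZNF567 (ENSG00000189042) is annotated on the plus strand at chr19:36687612-36727701 (hg38). It had 0.0139, 0 and 0 CPM in DNMT3B KO replicates 1, 2 and 3, against 8.36, 8.48 and 8.93 CPM in the HCT116 replicates. A single read count was assigned to it over the 3 DNMT3B KO libraries and 1545 counts over the 3 HCT116 libraries, a ratio of HCT116 to DNMT3B KO of 1689 after normalisation (exact 95% interval 302.7 to 66766, counting error only). The groups did not overlap, and the call held without any single library (adjusted p from 6.0e-07 to 0.0001 by edgeR's quasi-likelihood test). The fitted log2 fold change of -10.25 ± 0.43 (adjusted p = 3.0e-06, same test) rests on the small count that edgeR adds to genes near 0 and is no bound, and it was -12.04 without DNMT3B KO replicate 1, the library that held the single count. Its SE is likewise no bound on the error, and the Wald test of DESeq2 gave -10.63 ± 1.19. ZNF850 (ENSG00000267041) is annotated on the minus strand at chr19:36714383-36772825, and its counts were 1, 2 and 0 in DNMT3B KO, or 0.0139, 0.0335 and 0 CPM. In HCT116 it had 130, 182 and 106 counts, or 1.96, 2.86 and 2.10 CPM. Over all libraries HCT116 exceeded DNMT3B KO by a factor of 152.3 (exact 95% interval 51.8 to 741.7), and the fitted log2 fold change was -7.06 ± 0.57 (adjusted p = 8.6e-05 by edgeR's quasi-likelihood test) and -7.97 without DNMT3B KO replicate 2. All 3 HCT116 libraries were again above all 3 DNMT3B KO libraries. No exon of either gene overlaps an exon of another gene in the annotation. In bulk libraries such as these, fewer cells with a transcript and less RNA per cell cannot be told apart.

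RefSeq (GRCh38.p14) gives 2 start windows for ZNF567 and 1 for ZNF850, each reaching from 250 bases before the start to 50 bases after it. They are shown 5′ to 3′ on the strand of the gene, in lower case with every CpG in capitals, because the CpG is the dinucleotide that DNMT3B methylates. The first window of ZNF567 is chr19:36687362-36687661 (plus strand, 35 CpGs), the second is chr19:36666684-36666983 (plus strand, 18 CpGs) and that of ZNF850 is chr19:36772758-36773057 (minus strand, 23 CpGs).
ZNF567 window 1: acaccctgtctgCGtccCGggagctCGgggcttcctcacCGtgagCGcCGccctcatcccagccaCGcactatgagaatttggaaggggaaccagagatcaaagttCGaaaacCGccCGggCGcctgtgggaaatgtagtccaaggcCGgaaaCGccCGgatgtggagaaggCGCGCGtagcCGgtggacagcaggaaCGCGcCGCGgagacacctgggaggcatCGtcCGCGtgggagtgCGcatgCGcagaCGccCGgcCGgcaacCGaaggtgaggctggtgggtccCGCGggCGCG
ZNF567 window 2: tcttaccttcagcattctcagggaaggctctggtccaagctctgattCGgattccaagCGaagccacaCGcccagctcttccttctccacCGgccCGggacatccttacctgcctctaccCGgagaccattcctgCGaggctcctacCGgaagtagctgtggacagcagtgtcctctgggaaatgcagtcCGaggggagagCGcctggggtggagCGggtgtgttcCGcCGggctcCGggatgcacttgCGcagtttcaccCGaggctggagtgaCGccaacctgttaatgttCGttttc
ZNF850 window 1: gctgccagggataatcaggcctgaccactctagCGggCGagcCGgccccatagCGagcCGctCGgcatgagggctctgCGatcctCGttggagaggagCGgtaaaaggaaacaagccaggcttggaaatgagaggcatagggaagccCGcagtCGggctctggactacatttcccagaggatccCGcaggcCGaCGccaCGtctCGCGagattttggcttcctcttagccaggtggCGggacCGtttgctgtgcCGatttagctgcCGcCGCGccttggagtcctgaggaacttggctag
The first ZNF567 window, whose start is the GENCODE 5′ end of the gene, was the CpG-richest among the windows of called members. Its ratio of observed to expected CpGs, which is 1 when C and G follow each other as often as their shares alone would give, was 1.04, against a median of 0.579 over all 35116 windows of the RefSeq table. The second ZNF567 window lies 20678 bases before the first start and overlaps the window of ZNF461, which is read from the other strand. Which start these cells use was not tested.

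ZFP30, whose annotated body holds the pseudogene ZNF781 on the same strand, was also left with a single count in DNMT3B KO. ZFP30 (ENSG00000120784, minus strand, chr19:37613749-37692337) had 0.0139, 0 and 0 CPM in DNMT3B KO replicates 1, 2 and 3, against 6.05, 6.30 and 5.73 CPM in HCT116. These levels came from 1 count over the DNMT3B KO libraries and 1092 counts over the HCT116 libraries, a ratio of HCT116 to DNMT3B KO of 1194 (exact 95% interval 213.8 to 47202). The HCT116 libraries lay close to each other and far from the DNMT3B KO libraries, with a fitted log2 fold change of -9.74 ± 0.47 (adjusted p = 6.0e-06 by edgeR's quasi-likelihood test, from 1.5e-06 to 0.00016 when a library was left out). As for ZNF567, this fitted value and its SE are no bounds. The fitted value was -11.53 without DNMT3B KO replicate 1. Of the 50-base stretches of its annotated transcripts, 95.4% occur in no other gene, so most reads could be placed. On its strand ZFP30 shares exon sequence with AC093227.2, a readthrough annotation that had no count in any library. The 2 RefSeq windows of ZFP30 differ in CpG content, with 12 CpGs in chr19:37656212-37656511 and 29 in chr19:37655416-37655715 (both minus strand, GRCh38.p14), and both are shown with CpGs in capitals since they are alternative starts of one lost gene.
ZFP30 window 1: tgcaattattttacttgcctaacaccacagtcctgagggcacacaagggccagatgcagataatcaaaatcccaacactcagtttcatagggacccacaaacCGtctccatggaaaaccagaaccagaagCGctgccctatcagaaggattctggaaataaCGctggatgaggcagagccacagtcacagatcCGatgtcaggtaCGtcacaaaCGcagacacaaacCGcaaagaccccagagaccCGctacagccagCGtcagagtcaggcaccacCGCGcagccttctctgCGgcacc
ZFP30 window 2: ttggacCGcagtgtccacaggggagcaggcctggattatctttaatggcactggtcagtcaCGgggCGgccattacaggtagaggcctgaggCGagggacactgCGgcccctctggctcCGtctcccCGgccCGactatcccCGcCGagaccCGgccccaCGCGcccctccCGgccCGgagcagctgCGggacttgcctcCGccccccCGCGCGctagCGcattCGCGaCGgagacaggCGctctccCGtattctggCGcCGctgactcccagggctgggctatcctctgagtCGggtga
Their starts lie 36076 and 36872 bases inside the GENCODE gene, whose 5′ end is further upstream.

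The remaining switched-off genes, ZNF599 and ZNF30, are consecutive members in the proximal part of the interval. ZNF599 (ENSG00000153896, minus strand, chr19:34758073-34773229) had 0.125, 0.0839 and 0.0457 CPM in DNMT3B KO, against 1.43, 2.01 and 0.674 CPM in HCT116. The HCT116 libraries were spread over a wide range, with replicate 3 lowest, but all stood above every DNMT3B KO library. The log2 fold change was -3.98 ± 0.55 (adjusted p = 0.0013 by edgeR's quasi-likelihood test), a 15.8-fold lower level in DNMT3B KO. The adjusted p lay between 0.00017 and 0.012 when a library was left out, and without DNMT3B KO replicate 3 the number of switched-off members was 4, since the other DNMT3B KO libraries of ZNF599 had 0.125 and 0.0839 CPM. ZNF30 (ENSG00000168661, plus strand, chr19:34926903-34945170) had 0, 0.0503 and 0.0609 CPM in DNMT3B KO, against 2.66, 3.41 and 3.43 CPM in HCT116. These were 0, 3 and 4 counts in DNMT3B KO and 177, 217 and 173 counts in HCT116, so the groups were far apart. ZNF30 fell by 6.39 ± 0.58 on the log2 scale (adjusted p = 0.00016 by edgeR's quasi-likelihood test, from 6.5e-05 to 0.0024 when a library was left out), with fitted values of -5.78 without DNMT3B KO replicate 1 and -6.98 without DNMT3B KO replicate 3. Nearly all 50-base stretches of both genes were unique, 99.9% for ZNF599 and 100% for ZNF30. The RefSeq window of ZNF599, chr19:34773166-34773465 on the minus strand, is shown for comparison with the windows above and held 21 CpGs in capitals.
ZNF599 window 1: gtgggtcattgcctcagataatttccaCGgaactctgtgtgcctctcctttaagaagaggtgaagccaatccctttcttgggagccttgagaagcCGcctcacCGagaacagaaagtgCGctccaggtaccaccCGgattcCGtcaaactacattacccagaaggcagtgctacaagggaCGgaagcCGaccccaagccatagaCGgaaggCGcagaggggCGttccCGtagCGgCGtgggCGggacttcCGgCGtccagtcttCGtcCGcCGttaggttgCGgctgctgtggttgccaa

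ZNF607 was the only other member that fell, and it stayed well expressed. Its CPM values were 4.76, 5.35 and 5.85 in DNMT3B KO, against 7.74, 9.34 and 7.34 in HCT116. The groups did not overlap, and the log2 fold change was -0.61 ± 0.17 (adjusted p = 0.028 by edgeR's quasi-likelihood test). The call was lost without DNMT3B KO replicate 1, 2 or 3 (adjusted p = 0.11, 0.089 and 0.055) and without HCT116 replicate 1 (adjusted p = 0.073). Only 77.6% of its 50-base stretches are unique to it, and 12.2% are shared with AC093227.2, the unexpressed readthrough annotation named above.

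The 6 members that rose did so by 1.40- to 1.87-fold, and none reached 2-fold. ZNF302 (ENSG00000089335) and ZNF181 (ENSG00000197841) are consecutive members on the plus strand, proximal to ZNF599. ZNF302 had 11.6, 12.9 and 9.67 CPM in DNMT3B KO, against 7.39, 9.06 and 6.67 CPM in HCT116. ZNF181 had 7.75, 8.34 and 7.37 CPM in DNMT3B KO, against 5.54, 5.89 and 5.38 CPM in HCT116. Every DNMT3B KO library of each gene was above every HCT116 library, although the gap between 9.67 and 9.06 CPM in ZNF302 was small. The log2 fold changes were 0.56 ± 0.17 for ZNF302 (adjusted p = 0.045) and 0.48 ± 0.14 for ZNF181 (adjusted p = 0.039, edgeR's quasi-likelihood test). The pair shares sequence, since 6.2% of the 50-base stretches of ZNF302 also occur in ZNF181, so reads in those stretches could be split between them.

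Further along, ZFP14 (ENSG00000142065) rose to 8.94, 10.0 and 7.72 CPM in DNMT3B KO, against 5.43, 5.84 and 3.65 CPM in HCT116. Its log2 fold change was 0.84 ± 0.21 (adjusted p = 0.021 by edgeR's quasi-likelihood test). HKR1 (ENSG00000181666) and ZNF527 (ENSG00000189164) are consecutive members on the plus strand, and both rose. HKR1 had 9.84, 12.4 and 9.64 CPM in DNMT3B KO, against 5.68, 8.02 and 4.50 CPM in HCT116, with a log2 fold change of 0.80 ± 0.23 (adjusted p = 0.033, same test). ZNF527 had 3.47, 3.77 and 3.85 CPM in DNMT3B KO, against 1.85, 2.25 and 1.84 CPM in HCT116, with a log2 fold change of 0.90 ± 0.20 (adjusted p = 0.011, same test). ZNF527 therefore had both the highest fold change and the smallest adjusted p of the members that rose. Its RefSeq window, chr19:37370849-37371148 on the plus strand, is shown as that of a member that rose and held 27 CpGs in capitals.
ZNF527 window 1: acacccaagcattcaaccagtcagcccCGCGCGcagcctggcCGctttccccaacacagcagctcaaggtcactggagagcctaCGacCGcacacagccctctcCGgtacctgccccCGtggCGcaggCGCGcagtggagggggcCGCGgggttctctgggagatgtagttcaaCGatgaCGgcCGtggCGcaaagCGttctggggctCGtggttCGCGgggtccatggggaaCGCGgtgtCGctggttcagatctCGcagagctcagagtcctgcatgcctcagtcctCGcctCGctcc

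ZNF585B and ZNF585A are consecutive members on the minus strand that share sequence, and only ZNF585B was called. ZNF585B (ENSG00000245680) had 12.2, 11.99 and 9.66 CPM in DNMT3B KO, against 5.42, 8.64 and 5.10 CPM in HCT116, and rose (log2 fold change 0.82 ± 0.23, adjusted p = 0.029 by edgeR's quasi-likelihood test). ZNF585A (ENSG00000196967) had 4.12, 4.91 and 3.90 CPM in DNMT3B KO, against 4.35, 5.56 and 4.11 CPM in HCT116, and did not pass (-0.12 ± 0.19, adjusted p = 0.70). The difference between the 2 genes was not tested. Only 75.1% of the 50-base stretches of ZNF585B and 82.3% of those of ZNF585A are unique, with 15.5% of ZNF585B found in ZNF585A and 11.0% of ZNF585A found in ZNF585B, so the division of reads between them is uncertain. ZNF585B also overlaps AC012309.1, with 2 counts or fewer in every library, on its own strand and ZNF383 on the other.

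The calls of the members that rose depended on single libraries. The number that rose was 1, 1 and 3 without DNMT3B KO replicates 1, 2 and 3, and 0, 6 and 5 without HCT116 replicates 1, 2 and 3. ZNF302 was not called without DNMT3B KO replicate 1, 2 or 3 (adjusted p = 0.13, 0.16 and 0.051 by edgeR's quasi-likelihood test) or without HCT116 replicate 1 or 3 (0.15 and 0.064). ZNF181 was not called without DNMT3B KO replicate 1, 2 or 3 (adjusted p = 0.11, 0.14 and 0.083) or without HCT116 replicate 1 (0.13). These were the genes nearest to the threshold. HKR1 was not called without DNMT3B KO replicate 1, 2 or 3 (adjusted p = 0.075, 0.12 and 0.067) or HCT116 replicate 1 (0.11). ZFP14 was not called without DNMT3B KO replicate 1 or 2 (0.071 and 0.089) or HCT116 replicate 1 (0.056), ZNF585B without DNMT3B KO replicate 1 or 2 (0.10 and 0.10) or HCT116 replicate 1 (0.11), and ZNF527 without HCT116 replicate 1 alone (0.055). All 6 kept a positive log2 fold change in each of these fits, from 0.43 to 1.09. In all 6, HCT116 replicate 2 was the highest and replicate 3 the lowest of the HCT116 libraries, an order found in 12 of the 20 tested members and in 34.2% of all tested genes. These were the libraries at the ends of the second principal component, and their part in the result was not tested.

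Of the 8 members that did not pass, values are given for the 4 with the highest mean CPM, a unit not scaled to gene length. ZNF146 (OZF), a protein made of zinc fingers without a KRAB domain, had 215, 209 and 219 CPM in DNMT3B KO, against 198, 204 and 207 CPM in HCT116. All DNMT3B KO libraries were above the HCT116 libraries, but by little, with a log2 fold change of 0.08 ± 0.08 (adjusted p = 0.51 by edgeR's quasi-likelihood test). ZNF507, the most proximal member, had 55.7, 56.1 and 55.8 CPM in DNMT3B KO, against 64.0, 55.5 and 63.9 CPM in HCT116 (log2 fold change -0.13 ± 0.09, adjusted p = 0.32). ZNF566 had 6.60, 6.79 and 6.51 CPM in DNMT3B KO, against 7.39, 9.94 and 6.49 CPM in HCT116 (-0.26 ± 0.19, adjusted p = 0.34). In both, the spread of the HCT116 libraries covered the DNMT3B KO values. ZNF383 had 7.82, 7.28 and 7.68 CPM in DNMT3B KO, against 7.02, 8.67 and 6.15 CPM in HCT116 (0.06 ± 0.17, adjusted p = 0.82). Besides ZNF585A, the others were ZNF792, ZNF565 and ZNF573, with log2 fold changes of -0.25 ± 0.18, 0.39 ± 0.21 and -0.02 ± 0.38. The lowest adjusted p of the 8 was 0.20, for ZNF565, and a p above the threshold does not show that the levels were equal. The summed level of all 36 genes was 354 to 358 CPM in DNMT3B KO and 348 to 364 CPM in HCT116, and 135 to 149 CPM and 144 to 160 CPM without ZNF146.

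The 16 members below the filter had few or no counts in either line. No count in any library was assigned to ZFP82, ZNF382, ZNF829, ZNF568, ZNF420, ZNF793 and ZNF540, which allows a level of up to 0.0416 to 0.0595 CPM in a library for counting error alone. ZNF382 is a KRAB repressor whose promoter is known to be methylated in several carcinomas, ZNF420 (APAK) restrains p53, and Zfp568, the mouse counterpart of ZNF568, represses a placental transcript of Igf2. In the other 9, namely ZNF260, ZNF529, ZNF461, ZNF790, ZNF345, ZNF569, ZNF570, ZNF571 and the pseudogene ZNF781, no library had more than 5 counts, or 0.0992 CPM. ZNF461 had 0 counts in each DNMT3B KO library, against 4, 5 and 1 counts in HCT116. ZNF571 had 1, 2 and 0 counts in DNMT3B KO, against 3, 4 and 5 in HCT116. Both were lower in every DNMT3B KO library than in any HCT116 library, at levels where no test was made. Of ZNF781, 5.2% of the 50-base stretches are unique, and 94.8% are shared with another gene entry of the same name in GENCODE. Its few counts therefore cannot be placed with certainty. The step between members that passed the filter and those below it was wide. The members just above it had 274 (ZNF599), 388 (ZNF573) and 421 (ZNF850) counts over the 6 libraries, and those just below it had 15 (ZNF571), 10 (ZNF461) and 6 (ZNF260). The RefSeq window of ZNF382, chr19:36605063-36605362 on the plus strand, is shown as that of a member with no count in either line and held 27 CpGs in capitals, as many as the window of ZNF527.
ZNF382 window 1: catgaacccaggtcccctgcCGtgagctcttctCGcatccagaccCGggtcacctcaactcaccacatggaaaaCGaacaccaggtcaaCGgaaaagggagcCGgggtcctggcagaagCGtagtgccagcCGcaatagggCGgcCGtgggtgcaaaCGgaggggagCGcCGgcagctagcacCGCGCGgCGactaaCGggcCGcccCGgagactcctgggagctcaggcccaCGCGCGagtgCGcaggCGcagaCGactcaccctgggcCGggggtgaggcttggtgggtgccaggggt

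The members' results are given here in chromosomal order. The interval, from base 32345594 to base 37817300 (hg38), spans 5.47 Mb and holds 257 genes of the files. Members lie on both strands, 16 on the plus and 20 on the minus strand, and 30 of the 36 lie from ZNF565 onwards. The 36 members made up 19 runs of the same result, and 11 of these runs were a single member. Whether like results lay together more than by chance was not tested. ZNF567 and ZNF850, both switched off, lie between a run of 4 members below the filter (ZNF260 to ZNF461) and a run of 5 (ZNF790 to ZNF420). A further run of 5 below the filter (ZNF569 to ZNF571) ends at ZFP30, the other switched-off gene of the distal part. ZNF599 and ZNF30 are the other consecutive members that fell. The members that rose include the consecutive pairs ZNF302 and ZNF181 and HKR1 and ZNF527, and the 5 members from ZNF585A to ZNF527 hold 3 of the 6. Members of a run share their place on the chromosome and are not independent of each other.

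Several members start head to head, on opposite strands with starts within 1 kb of each other, where a start could come from GENCODE or RefSeq. There were 8 such pairs. In 5 of them both genes were below the filter, among them ZNF529 with ZNF382 (37 bases between the starts) and ZNF829 with ZNF568 (25 bases). The pair ZNF565 and ZNF146 (22 bases) had no called gene, and the ZNF565 start used lies 31173 bases from its GENCODE 5′ end. Among the 5 pairs below the filter, the ZNF540 start paired with ZNF571 lies 43470 bases from the GENCODE 5′ end of ZNF540. ZNF585B rose and its partner ZNF383 (61 bases) did not pass. This distance holds for the GENCODE 5′ end of ZNF585B, and its RefSeq start lies 7617 bases from that end. In the eighth pair, ZNF461 and the upstream RefSeq start of ZNF567 (81 bases), ZNF567 had 1 count in DNMT3B KO, against 1545 in HCT116, and ZNF461 had 0, against 10. No pair held a gene that rose and a gene that fell.

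Most promoter windows of the members held more CpGs than the median window of the table. RefSeq gave a window for 32 of the 36 members, all but ZFP14, ZNF781, ZNF30 and ZNF571, and the window nearest to the GENCODE 5′ end was used where there were several. The nearest start could still lie far from that end, as for ZNF420 (70365 bases), ZNF573 (37714), ZFP30 (36076) and ZNF585B (7617). These 32 windows held a median of 23 CpGs (12 to 37) in 300 bases, against a median of 14 over all 35116 windows of the table, which are not cut to 1 per gene. In 30 of the 32 the number was above that median, and the exceptions were ZFP30 with 12 and ZNF570 with 14. The median ratio of observed to expected CpGs was 0.798 in the members and 0.579 over all windows. By result, the median was 27 CpGs in 5 members that rose, 21 in 5 that fell, 24 in 8 that did not pass and 21.5 in 14 below the filter. The groups overlapped widely, since windows of members that fell ranged from the 12 CpGs of ZFP30 to the 35 of ZNF567. Motifs were searched in the same windows on both strands as exact letters, and no motif of the set contains another. CCGGAAG, the core of the ETS motif, was in 8 of 32 windows (25.0%) and in 10.3% of all windows, and the 8 included ZNF302, ZNF181 and ZNF585B, which rose, and ZNF599, which fell. GCCATNTT, the YY1 motif, was in 6 (18.8%) and in 6.58% of all windows, with 4 of the 6 in members that did not pass. GCGCATGCG, the NRF1 motif, was in 3 (9.38%), those of ZNF567, ZNF607 and ZNF540, and in 1.92% of all windows. TATAAA, TGACGTCA (the CRE) and ACTACAATT (part of the ZNF143 motif) were in 0 of the 32 windows and in 11.5%, 1.85% and 0.336% of all windows. Among all 53 windows of the members, 1 held TATAAA (the second of ZNF790), 2 held TGACGTCA (overlapping windows of HKR1) and 1 held ACTACAATT (the third of ZNF565), while 15 held CCGGAAG, 6 GCCATNTT and 3 GCGCATGCG. These matches describe the letters of the windows only.

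**Figure D2:**
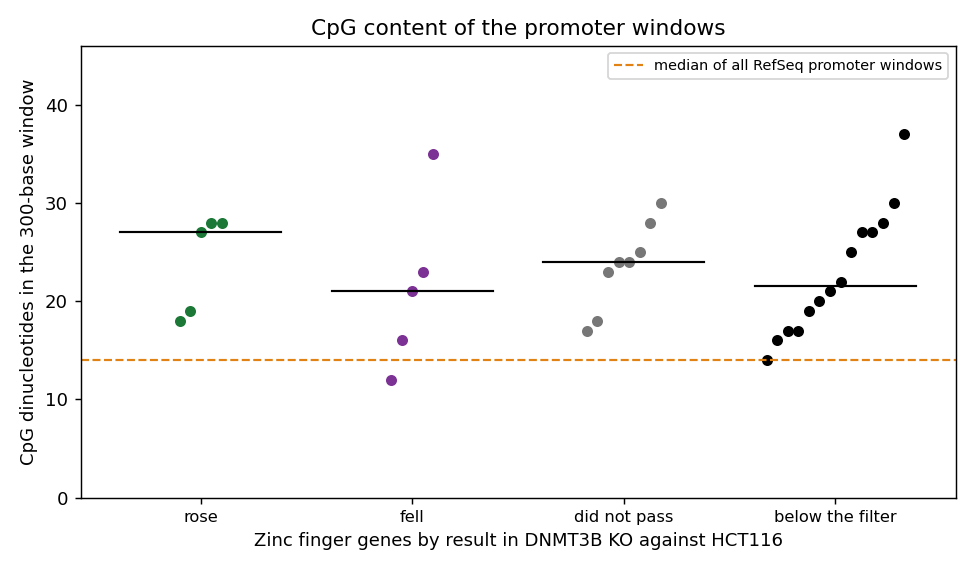
Number of CpG dinucleotides in the 300-base RefSeq window of 32 zinc finger genes, 1 point per gene, grouped by result in DNMT3B KO against HCT116, with a bar for each median and a dashed line at 14, the median of all windows. The medians of 27, 21, 24 and 21.5 lie above the dashed line, and the 4 groups overlap.

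The genes of proteins through which KRAB zinc fingers act, listed with genes of DNA and histone methylation such as DNMT1, DNMT3A, UHRF1 and EHMT1, were all expressed, and none was switched off. Of 33 genes of this list, all tested, 7 rose, 3 fell and 23 did not pass (30.3% called, against 28.1% of all tested genes, median log2 fold change 0.10). Of the 7 that rose, ZNF274 is itself a zinc finger gene of chromosome 19 and is counted again among those genes below. TRIM28, the co-repressor bound by the KRAB domain, had 806, 903 and 858 CPM in DNMT3B KO, against 890, 742 and 1125 CPM in HCT116, and did not pass (log2 fold change -0.10 ± 0.15, adjusted p = 0.66 by edgeR's quasi-likelihood test). SETDB1, which writes H3K9me3, had 47.7, 46.8 and 47.7 CPM in DNMT3B KO, against 61.2, 59.4 and 55.3 CPM in HCT116, and fell by 0.31 ± 0.08 on the log2 scale (adjusted p = 0.024, same test). ATF7IP2, a paralog of the SETDB1 partner ATF7IP, was the only gene of the list changed by 2-fold, with 14.5, 11.8 and 13.0 CPM in DNMT3B KO, against 7.68, 6.67 and 4.56 CPM in HCT116 (log2 fold change 1.05 ± 0.21, adjusted p = 0.0068, same test). The number of the list that rose was 4 without DNMT3B KO replicate 1, 2 or 3, 3 without HCT116 replicate 1 and 11 without HCT116 replicate 3. The number that fell was 2 or 3 throughout.

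The neighbouring genes of the interval that carry no zinc finger symbol did not include a switched-off gene. Of 89 such protein-coding genes, 62 were tested, and 8 rose, 13 fell and 41 did not pass (33.9% called, against 28.1% of all tested genes, median log2 fold change 0.17). The number that rose was 4, 5 and 4 without DNMT3B KO replicates 1, 2 and 3. Only 2 of the 89, AC012309.1 and AC093227.2, start after ZNF565, and both had 2 counts or fewer in every library, so the distal part, where 3 of the 5 switched-off members lie, holds no tested neighbour. Of 266 other genes of chromosome 19 with a zinc finger symbol, including antisense RNAs, pseudogenes and such genes inside the interval, 158 were tested. Of these, 30 rose, 48 fell and 80 did not pass (49.4% called, against 28.1% of all tested genes, median log2 fold change 0.07), and 26 were switched off and 0 switched on. The number that rose was 18 without DNMT3B KO replicate 1 or 2 or HCT116 replicate 1. Switched-off genes made up 5 of the 20 tested members, 26 of the 158 other zinc finger genes and 0.761% of all tested genes. The difference was not tested. The 5 members passed the filter only through their HCT116 libraries, so these shares are descriptions and carry no weight as a test.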

How the data were processed

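RNA was sequenced as paired-end reads from stranded mRNA libraries. STAR (alignment to hg38) and Salmon (counting in Ensembl transcripts) were run by the authors, who deposited estimated counts for each gene and library, scaled for gene length. Here these expected counts were rounded, filtered with filterByExpr and normalised by TMM. DNMT3B KO was compared with HCT116 in R 4.3.3 by edgeR 4.0.16 (quasi-likelihood F test, 1 factor for genotype), with adjustment by Benjamini-Hochberg over all 16959 tested genes and a threshold of 0.05. The SE is the log2 fold change divided by the square root of F. For genes with almost no counts in 1 line it understates the error of the fold change. The Wald test of DESeq2 gave SEs of 1.19 for ZNF567, 0.90 for ZNF850 and 1.20 for ZFP30, against 0.43, 0.57 and 0.47. CPM is not per length, so differences were tested between lines and not between genes, and CPM ranked genes only to choose which values are given. Positions come from GENCODE release 44 (hg38), promoter windows from RefSeq. Uniqueness is the share of 50-base stretches of the annotated transcripts found in no other gene. Reads in exons that 2 genes share on a strand cannot be assigned with certainty. Intervals and floors (3 counts per library) cover counting error only and treat the rounded estimates as whole read counts.

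The rule for the members names symbols and uses no measured value, but the members and lists were chosen with earlier results of these data known. By rule, values in every library were given for members switched off, for other called members changed at least 2-fold and for the 4 members with the highest mean CPM that did not pass. Of the neighbouring and co-repressor genes, the rule took called genes changed at least 2-fold (up to 8 each) and TRIM28, SETDB1 and DNMT3B. Values of the other called members and of ZNF585A were added after they had been seen. Alternatives were DESeq2 size factors, the Wald test of DESeq2 1.42.0, no filter on low counts, other thresholds, a replicate block and leaving out each library. The fit was tested on simulated counts. Protein sequences were not analysed here. The summed level of the immune markers is not reported here.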

Additional observations from a re-analysis of the deposited data

How the results depend on the processing

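Of 200 refits of single zinc finger genes (20 genes, 10 settings each), 167 kept the direction and the side of the threshold, 27 lost a call and 6 changed sign, all 6 in genes that were never called. As log2 fold changes, ZNF585A was 0.016 without HCT116 replicate 2 and lay between -0.22 and 0.016 over all left-out libraries, and ZNF383 was -0.041 without HCT116 replicate 3 and lay between -0.041 and 0.19. ZNF573 was 0.019 with the replicate block and lay between -0.27 and 0.37 over all left-out libraries, above 0 without DNMT3B KO replicates 1 or 3 or HCT116 replicate 1. When a library was left out, the zinc finger members that rose numbered 0 to 6 and those that fell 5 to 6, the switched-off members 4 to 5, the neighbouring genes that rose 4 to 10, the co-repressor genes that rose 3 to 11, the other chromosome 19 zinc finger genes that rose 18 to 36, all called genes 3049 to 5924 and all genes that rose 1283 to 2868. With the added demand of a 2-fold change, 0 members rose and 5 fell. The Wald test of DESeq2 called 5537 genes and the fit without a filter 4987, with 6 and 5 members rising and 6 falling in each. ZNF181 was also lost without the filter (adjusted p = 0.086 by edgeR's quasi-likelihood test). No clear pairing by replicate number was seen. The deviations of same-numbered libraries correlated at 0.064, -0.010 and 0.12, and those of differently numbered libraries at -0.12 to 0.084. With 3 libraries per line these values cannot exclude a pairing. With the replicate block 4214 genes were called and 5 members rose and 5 fell, with ZNF181 (adjusted p = 0.066) and ZNF607 (0.0502) lost. Fits without a library hold fewer samples. Those without HCT116 replicate 2 or 3 called 5924 and 5754 genes, against 4761 in the fit over all 6 libraries. Those without any other library called 3049 to 3148. The cause of lost calls was not tested. The 16 members below the filter had too few counts for a comparison, with no more than 5 in any library, and the part of depth in this was not tested.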

Other observations

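Among the neighbouring protein-coding genes of the interval, 3 rose and 5 fell by at least 2-fold, and they stand in the part between ZNF30 and ZNF565. KIRREL2, a relative of the slit diaphragm protein nephrin, had 42.8, 40.8 and 36.1 CPM in DNMT3B KO, against 0.828, 1.59 and 0.674 CPM in HCT116 (log2 fold change 5.26 ± 0.29, adjusted p = 1.3e-05 by edgeR's quasi-likelihood test). NPHS1, which encodes nephrin and overlaps KIRREL2 in the annotation, had 9.17, 10.8 and 8.41 CPM in DNMT3B KO, against 0.437, 0.565 and 0.0793 CPM in HCT116 (4.67 ± 0.49, adjusted p = 0.00031, same test). The adjacent genes were thus higher in every DNMT3B KO library, while the zinc finger genes of the interval that rose did so by less than 2-fold. ATP4A, a subunit of the gastric proton pump, rose by 2.37 ± 0.48 on the log2 scale (adjusted p = 0.0082, same test), with 0.749, 1.07 and 0.548 CPM in DNMT3B KO, against 0.181, 0.204 and 0.0595 CPM in HCT116.

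CD22, a lectin known from B cells, had 1.03, 0.872 and 0.807 CPM in DNMT3B KO, against 7.30, 10.3 and 6.53 CPM in HCT116, and its log2 fold change was -3.15 ± 0.24 (adjusted p = 6.9e-05 by edgeR's quasi-likelihood test). FXYD3, FXYD1 and FXYD5, which encode regulators of the sodium pump, fell by 2.51 ± 0.47, 1.52 ± 0.27 and 1.33 ± 0.11 on the log2 scale. GRAMD1A, a sterol transfer protein, fell by 1.18 ± 0.08, with 28.2, 27.9 and 26.2 CPM in DNMT3B KO, against 63.4, 63.3 and 59.8 CPM in HCT116. None of these genes had a mean under 0.1 CPM in DNMT3B KO, as the switched-off zinc finger genes of the same interval had.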
